A study of Saccharomyces cerevisiae with 109 samples.

Results

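Trichostatin A (TSA) was compared with its solvent, dimethyl sulphoxide (DMSO), in heat-shocked yeast on 6 of the 109 arrays of the series, the 3 wild-type arrays labelled with TSA and the 3 labelled with DMSO. They were chosen by their labels and not by any measured value. The cells were BY4741, a haploid laboratory strain (Mat a his3Δ1 leu2Δ0 met15Δ0 ura3Δ0), grown in rich medium and moved from 25°C to 37°C for 5, 15 or 30 min. In the treated arm 10 µM TSA was present from 15 min before the shift, and the control arm received DMSO alone. Each array has 2 channels, with RNA of stressed cells in one and RNA of unstressed cells of the same arm, also given TSA or DMSO, in the other. The value of a gene is the log2 of stressed over unstressed, so that 1 stands for a 2-fold rise. For comparison, 7 arrays of wild-type and 5 arrays of rpd3Δ (rpd3::KANMX) cells from the first and the second untreated heat shock course were used, together with 2 arrays at 20 min of rpd3Δ cells in SC-Leu that carried either RPD3 or the catalytically mutated allele rpd3H150:151A on a plasmid, and 3 arrays of unstressed rpd3Δ over unstressed wild-type cells.

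Histone deacetylases remove acetyl groups from lysines of histone tails. TSA is a hydroxamate that blocks the zinc-dependent deacetylases, which in yeast are Rpd3p, Hda1p and their relatives Hos1p, Hos2p and Hos3p, and it spares the NAD-dependent sirtuins. Rpd3p is recruited to promoters by factors such as Ume6p and removes acetyl marks there. Heat shock triggers the Environmental Stress Response, in which ribosomal protein (RP) genes and a broader group of protein synthesis (PS) genes, mostly for ribosome assembly, are repressed, and a set of stress defence genes (iESR genes) is induced by factors such as Msn2p and Msn4p. The heat shock factor Hsf1p drives chaperone genes in parallel.

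There was 1 array per treatment and time, so no difference between TSA and DMSO could be tested and none has a p-value. The 3 times of an arm are not replicates, and because the unstressed cells of the treated arm also received TSA, an effect of TSA before stress would enter every ratio of that arm. Between 5495 and 5734 genes were measured per array, and 5129 were measured on all 6. Array medians lay between -0.07 and 0.06. The direction of the ratios was checked on HSP104, HSP26, SSA4 and HSP82, which were above 0 on all 6 arrays, and on the RP genes, whose mean was below 0 on all 6. Whether the RNA of RPD3 itself moved was also read. RPD3 stood at 0.28, 0.43 and 0.31 with DMSO and at 0.11, 0.23 and 0.19 with TSA at 5, 15 and 30 min, HDA1 differed by no more than 0.26 at any time and HOS2 by no more than 0.35. HOS3, at 0.87 with DMSO and 0.46 with TSA at 5 min, differed by -0.40 there and by 0.14 and -0.02 later.

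A difference is written here as the log2 ratio with TSA minus that with DMSO, and a gene is called when it passes 1.5-fold, the fold the study used for time courses. At 5 min 281 genes were higher with TSA (5.48% of those measured) and 199 lower (3.88%). At 15 min 476 were higher (9.28%) and 474 lower (9.24%), and at 30 min 213 (4.15%) and 215 (4.19%). The largest number of genes therefore differed at 15 min. The yardstick for these counts was the difference between the first and the second wild-type heat shock course, which are separate cultures of one strain with no drug. These differed by more than 1.5-fold in either direction in 25.6% of genes at 5 min and in 37.8% at 30 min. The SD of the difference over genes was 0.36, 0.49 and 0.38 between TSA and DMSO at 5, 15 and 30 min, and 0.57 and 0.73 between the wild-type courses at 5 and 30 min. Arrays of the wild-type courses thus lay farther apart than the TSA and DMSO arrays at both times that could be compared. At 5 and 30 min r across genes was 0.84 and 0.59 between these courses and 0.93 and 0.90 between TSA and DMSO. The TSA and DMSO arrays are labelled as the same course. The yardstick may therefore hold differences between courses that the TSA and DMSO pair does not have.

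**Figure D1:**
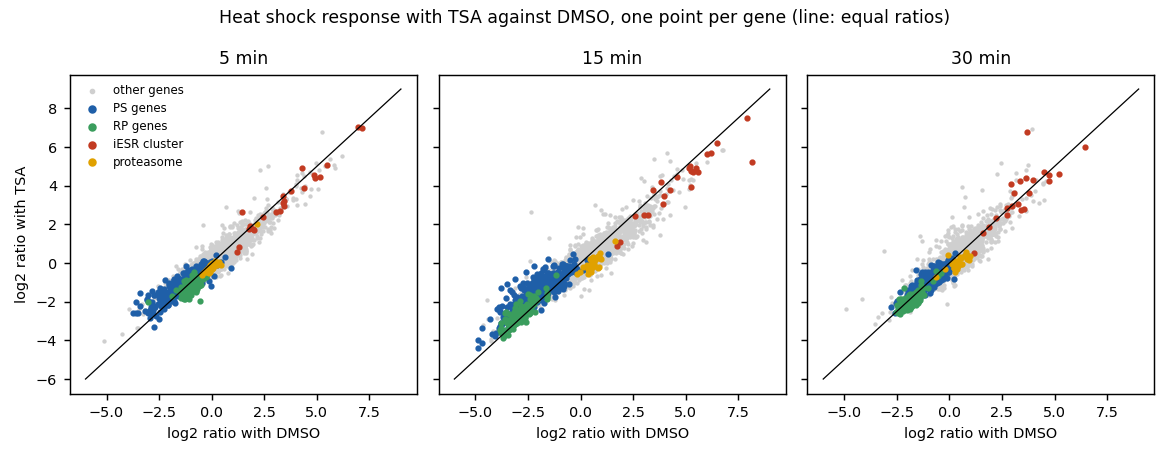
The log2 ratio with TSA (y axis) is plotted against that with DMSO (x axis) at 5, 15 and 30 min for the 5129 genes measured on all 6 arrays, with PS genes, RP genes, the iESR cluster and proteasome genes in colour and a line of equal ratios. At 15 min most PS genes lie above the line and proteasome genes below it.

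Across genes the SD of the ratios was smaller with TSA than with DMSO at 5 and 15 min and alike at 30 min. The least-squares slope of the TSA ratios on the DMSO ratios was 0.82, 0.77 and 0.88 at 5, 15 and 30 min. Such a slope falls below 1 from scatter alone. Between the wild-type courses, first on second, it was 0.84 at 5 min and 0.50 at 30 min. To follow the response in genes chosen on other arrays, genes over 2-fold induced or repressed on the untreated wild-type arrays of the same time were taken. The 299 induced genes averaged 2.09 with DMSO and 1.85 with TSA at 5 min, and 76.6% of them were lower with TSA, as were 2819 of all 5129 genes. The 528 induced genes of 15 min averaged 1.89 with DMSO and differed by -0.40 with TSA. At 30 min the 159 induced genes stood at 2.06 and 2.03, so the induced side differed early and hardly at all by 30 min. The repressed genes behaved alike. The 296 repressed genes of 5 min averaged -1.64 with DMSO and -1.26 with TSA, and 34.1% of them were over 1.5-fold higher with TSA, against 5.48% of all genes. The 667 repressed genes of 15 min averaged -1.98 and -1.54, with 32.5% over 1.5-fold higher against 9.28% of all genes. The 130 of 30 min averaged -1.86 and -1.70. These differences move with the overall spread of an array: the SD of all values was 0.96, 1.31 and 0.85 on the DMSO arrays and 0.87, 1.06 and 0.85 on the TSA arrays. When every array was scaled to one median absolute deviation, a step that also removes any response that is smaller in all genes alike, the induced sets differed by 0.13, 0.09 and 0.26 and the repressed sets by 0.13, -0.07 and -0.08 at 5, 15 and 30 min. A weaker response of the cells and a smaller spread of the arrays cannot be told apart with 1 array each.

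Of the repressed genes, the PS genes were less repressed with TSA at 5 and 15 min and alike at 30 min. The list was drawn up by the study on arrays of this series, in 3 classes by dependence on Rpd3p, so that it is not independent of the rpd3Δ arrays, and 388 of its 415 genes were measured. Their mean was -1.23, -2.01 and -0.91 with DMSO at 5, 15 and 30 min, and with TSA it differed by 0.23, 0.58 and 0.05. At 15 min 166 of the 388 were over 1.5-fold higher with TSA and 1 was lower, against 9.28% and 9.24% of all genes. The classes lay in the order of their dependence. The mean difference at 15 min was 0.87 in the 45 heavily dependent genes, 0.61 in the 272 intermediate and 0.26 in the 71 weakly dependent ones, and the same classes gave 0.46, 0.25 and -0.00 at 5 min. They also differ in how far they fell with DMSO at 15 min, to -3.02, -2.05 and -1.19. With scaled arrays the PS mean difference shrank to 0.03 at 5 min and 0.06 at 15 min and was -0.07 at 30 min. Between the wild-type courses the mean of the PS genes differed by -0.11 at 5 min and 0.16 at 30 min.

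Lists fixed by function gave the same picture from the side of ribosome assembly. They share members with the PS list, RRP1 among them, and were read on the same arrays, so they are not separate support. The small subunit processome, the complex that processes the 18S rRNA, averaged -2.66 with DMSO and -1.85 with TSA at 15 min, and 23 of its 41 measured genes were over 1.5-fold higher with TSA, where 9.28% of all genes were, a share that also stands beside the counts of the next lists. DIP2, one of its components, stood at -2.72, -3.56 and -0.83 with DMSO and at -1.64, -1.79 and -0.82 with TSA. The ratios of DIP2 were apart at the early times and level at 30 min. Factors of 60S assembly averaged -2.91 and -2.18 at 15 min, with 23 of 39 higher. Subunits and factors of RNA polymerases I and III, which transcribe rRNA and tRNA, averaged -2.24 and -1.47, with 11 of 19 higher. GAR1, a protein of the box H/ACA particles that modify rRNA and one of the genes that the study assayed singly, stood at -2.38, -3.56 and -1.67 with DMSO and at -1.96, -2.65 and -1.46 with TSA, a smaller fall at each time. In these 3 lists and that of the H/ACA particles the mean difference at 30 min lay between -0.04 and 0.06. With scaled arrays the 15 min means of the processome and the polymerases stayed above 0, at 0.12 and 0.19, while that of the 60S factors turned to -0.02.

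Few members kept their difference at all times. RRP1, a 60S assembly factor, stood at -1.23, -3.27 and -1.40 with DMSO and at -0.16, -1.51 and -0.81 with TSA. RRN3, the factor that brings RNA polymerase I to the rDNA promoter, stood at -1.32, -1.47 and -0.55 with DMSO and at -0.32, 0.08 and 0.05 with TSA, so that its fall was nearly absent with TSA from 15 min. At the other end, UTP23 of the processome differed by -0.40, 0.01 and -0.37. IFH1, a coactivator of RP genes, was at -0.37 and -0.50 with DMSO and at 0.44 and 0.92 with TSA at 5 and 15 min. TOD6, a repressor that recruits Rpd3p to ribosome assembly genes, was at -2.72 with DMSO and -1.03 with TSA at 15 min and differed by 0.07 and -0.19 at 5 and 30 min.

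The RP genes did not follow the PS genes. The mean of the 134 RP genes measured was -0.99, -2.92 and -1.83 with DMSO and -1.29, -2.70 and -1.95 with TSA. They were thus lower with TSA at 5 and 30 min and higher at 15 min as deposited, and with scaled arrays they were lower at all 3 times, by -0.56, -0.53 and -0.40. At 5 min 119 of 134 lay below 0, as did 2819 of all 5129 genes. Of the 134, 10 were over 1.5-fold lower and 1 higher, against 3.88% and 5.48% of all genes. The mean differences at 5, 15 and 30 min were -0.27, 0.20 and -0.09 for the small and -0.31, 0.24 and -0.14 for the large subunit genes. RPL16A, assayed singly by the study, stood at -0.92, -3.29 and -1.74 with DMSO and at -1.20, -2.70 and -1.90 with TSA. RPS3 was the member with the highest mean difference, with -0.83, -2.86 and -2.16 with DMSO and -0.46, -2.44 and -1.28 with TSA. Between the wild-type courses the RP mean differed by -0.17 and 0.30 at 5 and 30 min, less than between TSA and DMSO at 5 min and more at 30 min, and many RP genes have near-identical copies whose signals on an array cannot be separated.

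**Figure D2:**
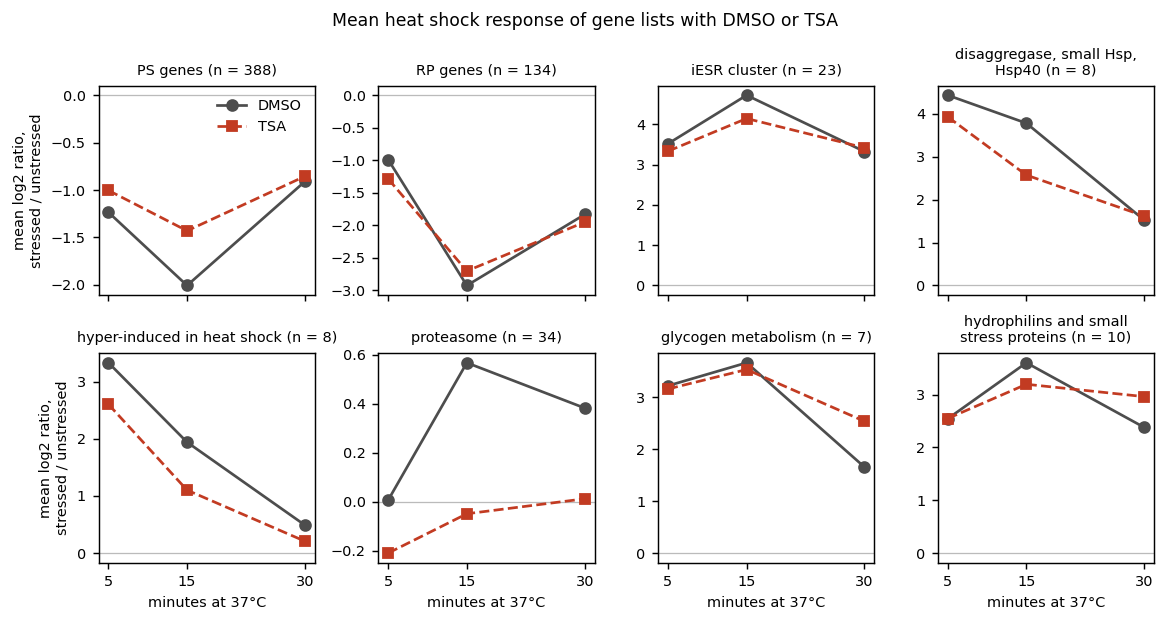
Mean log2 ratio of 8 gene lists (y axis) with DMSO (circles, solid) and TSA (squares, dashed) against minutes at 37°C, with 1 array per point and the number of genes measured in each title. PS genes are farthest apart at 15 min, proteasome genes lie lower with TSA at all 3 times, and glycogen genes are apart at 30 min only.

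Genes of the 26S proteasome, which degrades proteins tagged with ubiquitin, were lower with TSA at every time. As deposited, 34 of 34 members were below 0 at 5 and 15 min and 33 of 34 at 30 min. Across all genes 2819 of 5129 were below 0 at 5 min, 2671 at 15 min and 2788 at 30 min. The list averaged 0.01, 0.57 and 0.38 with DMSO and -0.21, -0.05 and 0.01 with TSA, so that a rise seen with DMSO at 15 and 30 min was not seen with TSA. PRE1, a subunit of the core particle and the member with the lowest mean difference, stood at -0.07, 0.52 and 0.28 with DMSO and at -0.46, -0.47 and -0.47 with TSA. PRE3, the core subunit with caspase-like activity, stood at -0.09, 0.82 and 0.45 with DMSO and at -0.30, -0.28 and -0.06 with TSA. RPN7 of the lid was at 0.01, 0.96 and 0.96 with DMSO and at -0.14, 0.18 and 0.37 with TSA. The single differences were modest. At 15 min 18 of the 34 were over 1.5-fold lower, at 30 min 7 and at 5 min 0, against 9.24%, 4.19% and 3.88% of all genes. RPN4, the transcription factor of the proteasome genes, was the exception at 30 min, with 2.14, 1.62 and -0.07 with DMSO and 2.00, 1.16 and 0.43 with TSA. The mean differences of -0.22, -0.62 and -0.37 became -0.26, -0.46 and -0.38 with scaled arrays, with 33, 34 and 33 members below 0. Between the wild-type courses the same list differed by 0.19, 0.22 and -0.14 at 5, 30 and 60 min. The difference at 5 min was thus of the size seen between these courses and that at 30 min was larger, while 15 min could not be compared. The study's own cluster of proteasome genes differed with TSA by -0.24, -0.47 and -0.27 at 5, 15 and 30 min. Between the wild-type courses that cluster differed by 0.37 at 5 min and 0.32 at 30 min, more than with TSA.

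Of 4 chaperone lists, that of the disaggregase, small heat shock proteins and Hsp40 proteins differed most at 5 and 15 min. Its 8 genes averaged 4.43, 3.78 and 1.52 with DMSO and 3.93, 2.57 and 1.62 with TSA. The list holds HSP26, described below, and without it the 7 other genes differed by -0.58, -0.96 and -0.33, so that the mean of 0.10 at 30 min rests on that gene. The other lists differed less, with -0.21, -0.28 and 0.01 for cytosolic Hsp70 and Hsp110, -0.09, -0.15 and -0.14 for Hsp90 and its cochaperones and -0.15, -0.32 and -0.05 for mitochondrial chaperones, and with scaled arrays all 3 lay between -0.06 and 0.07. HSP104, the disaggregase that pulls apart aggregated proteins, stood at 4.85, 5.57 and 3.28 with DMSO and at 4.54, 4.73 and 3.04 with TSA. HSP42, a small heat shock protein that gathers misfolded proteins into deposits, was at 5.85, 5.18 and 2.57 with DMSO and at 4.92, 3.81 and 2.05 with TSA. BTN2, a sorting factor for such deposits, was at 5.84, 4.27 and 1.59 with DMSO and at 5.04, 2.46 and 0.57 with TSA. All of these remained strongly induced at 5 min in both arms, and the gap was widest at 15 min. CUR1, APJ1 and SIS1, further factors of protein sorting and Hsp40 type, were lower at 5 min by -0.72, -0.88 and -0.54 and at 15 min by -1.12, -0.69 and -0.71. FES1, the nucleotide exchange factor of cytosolic Hsp70, fell short by -0.50 and -1.03. The study's cluster of genes hyper-induced by heat shock, which shares several of these genes, averaged 3.33, 1.94 and 0.49 with DMSO and 2.60, 1.10 and 0.21 with TSA, with 8 of 8 members lower at 5 min and 7 of 8 at 15 min. Of all 5129 genes 2819 and 2671 were lower at these times. With scaled arrays this cluster stayed lower, by -0.21 and -0.33, whereas the disaggregase list turned to 0.28 at 5 min and was -0.23 at 15 min. SSA4, the heat-inducible Hsp70, differed less, with 7.13, 7.91 and 6.45 with DMSO and 6.98, 7.51 and 5.98 with TSA. HSP82, the inducible Hsp90, was at 1.67, 2.54 and 1.22 with DMSO and at 2.00, 1.95 and 1.48 with TSA, higher at 5 and 30 min and lower at 15 min.

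The iESR cluster, also drawn up by the study on arrays of this series, had 23 of 25 genes measured. It averaged 3.52, 4.72 and 3.32 with DMSO and 3.33, 4.14 and 3.42 with TSA, with 9 of 23 over 1.5-fold lower at 15 min and 0 higher, against 9.24% and 9.28% of all genes. At 30 min 14 of 23 were below 0, as were 2788 of all 5129 genes. The median of the cluster was then -0.03, while HSP26, the highest member, differed by 3.06. With scaled arrays its mean was higher with TSA at all times, by 0.49, 0.64 and 0.59. DDR2, a stress-induced gene of poorly known role, was at 5.47, 6.21 and 4.72 with DMSO and at 5.08, 5.68 and 4.24 with TSA. RTN2, a reticulon of the endoplasmic reticulum, went the other way, with 1.45, 3.81 and 2.95 with DMSO and 2.62, 4.18 and 4.11 with TSA. The study also sorted genes by their need of Msn2/4p and Rpd3p in H2O2, and the lists used here are those of its computational analysis, which need not hold every gene of a class. The 27 measured genes listed as dependent on Msn2/4p only differed by 0.11, -0.21 and 0.07, the 200 dependent on Rpd3p only by -0.27, -0.42 and -0.18, and the 86 equally affected by both by -0.28, -0.50 and -0.25. The 59 genes with additive need of both differed by -0.15, -0.44 and 0.08 and the 35 more dependent on Msn2/4p by -0.25, -0.54 and 0.00. The means of these 2 classes were thus level at 30 min, but their members were not. Over 1.5-fold higher were 7 of the 59 and 6 of the 35, and lower were 7 and 7, against 4.15% and 4.19% of all genes. With scaled arrays the Msn2/4p class moved to between 0.25 and 0.32, the Rpd3p class to between -0.11 and -0.04, the class equally affected to between -0.19 and -0.18, the additive class to between 0.17 and 0.34 and the class more dependent on Msn2/4p to between 0.29 and 0.47. Of the Rpd3p class 11 of 200 genes were lower at all 3 times, against 0.78% of all genes, and 4 of 86 of the class equally affected by both. These classes averaged 1.47 and 1.19 with DMSO at 15 min, and 37 of the 40 such genes were above 0 with DMSO throughout. All genes are thus not a matched background. With scaled arrays most of the 11 no longer passed 1.5-fold at every time.

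Some stress genes were lower with TSA at 15 min and higher at 30 min. HSP26, a small heat shock protein, stood at 6.97, 8.15 and 3.70 with DMSO and at 7.02, 5.21 and 6.76 with TSA, a difference of 0.06, -2.94 and 3.06. SPI1, a cell wall protein, was at 4.03, 3.79 and 0.08 with DMSO and at 4.08, 1.44 and 1.87 with TSA. PHM7, a membrane protein, was at 4.95, 5.33 and 0.59 with DMSO and at 5.20, 4.27 and 3.92 with TSA. All 3 genes were level at 5 min, and their DMSO ratio had dropped by 30 min while the TSA ratio was higher. In all, 19 of 5129 genes passed 1.5-fold lower at 15 min and higher at 30 min, and 7 the reverse. Of all genes 9.24% were lower at 15 min and 4.15% higher at 30 min. Whether 19 is more than unrelated differences would give was not tested.

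The genes of glycogen metabolism were on average higher with TSA at 30 min and close to DMSO before. They averaged 3.22, 3.66 and 1.65 with DMSO and 3.16, 3.53 and 2.53 with TSA, and 5 of 7 measured genes were over 1.5-fold higher with TSA at 30 min, against 4.15% of all genes. GAC1, a targeting subunit that directs protein phosphatase 1 to glycogen synthase, was at 4.31, 3.80 and 0.73 with DMSO and at 4.68, 4.50 and 3.41 with TSA. GPH1, glycogen phosphorylase, was at 4.68, 6.01 and 3.73 with DMSO and at 4.72, 5.20 and 5.05 with TSA. GDB1, the debranching enzyme, differed by 0.29, 0.28 and 1.11 and GSY1, a glycogen synthase, by -0.36, 0.04 and 0.76, whereas GSY2, the other synthase, differed by -0.24, -0.19 and -0.02. With scaled arrays the list was higher with TSA at all times, by 0.58, 0.81 and 1.28. Between the wild-type courses it differed by 0.39 at 5 min and 0.49 at 30 min. CTT1, the cytosolic catalase, showed the same late difference, with 4.06, 5.49 and 3.17 with DMSO and 4.30, 5.16 and 4.68 with TSA. Hydrophilins and other small stress proteins, 10 of 13 measured, differed by 0.00, -0.41 and 0.58, and SIP18, a hydrophilin, was at 0.93 with DMSO and 2.40 with TSA at 30 min. With scaled arrays that list was higher with TSA at all times, by 0.52, 0.52 and 1.03. As deposited, the mean of the trehalose list did not show this 30 min gain, with differences of -0.29, -0.57 and 0.05. With scaled arrays it was higher with TSA at all times, by 0.19, 0.31 and 0.38.

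**Figure D3:**
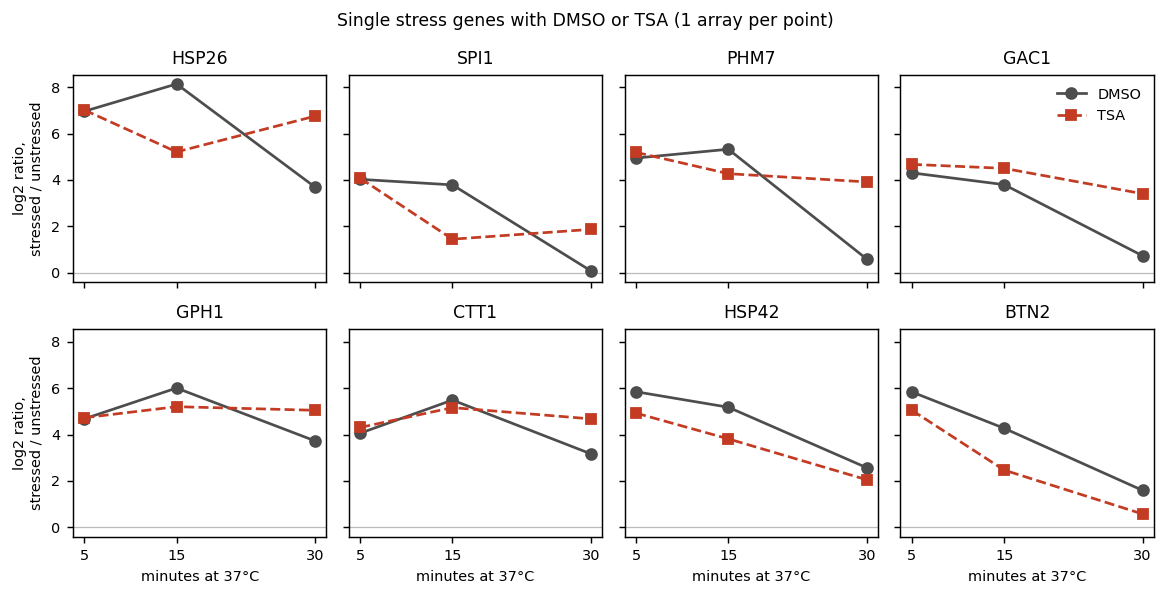
Log2 ratio of stressed over unstressed (y axis) against minutes at 37°C for 8 stress genes with DMSO (circles, solid) and TSA (squares, dashed), 1 array per point. HSP26, SPI1, PHM7, GAC1, GPH1 and CTT1 were higher with TSA at 30 min, and HSP42 and BTN2 were lower at every time.

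Over the 3 times, 23 genes were over 1.5-fold higher with TSA at each (0.448% of 5129) and 40 lower (0.78%). Between the wild-type courses 104 of 4081 genes (2.55%) differed in 1 direction at 5, 30 and 60 min. Counts of this size thus arise between separately run courses with no drug. The values nearest the threshold were 0.59 for RRP1, just inside, and 0.58 for EXP1, just outside, on the higher side, and -0.59 at 15 min for MIM2 and -0.58 at 5 min for ATP15 on the lower side. The 10 genes with the largest smallest difference in each direction are described here. All 10 on the higher side stayed past 1.5-fold at every time with arrays centred or scaled. Of the 10 on the lower side 4 did so with scaled arrays, and 8 kept their sign.

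On the higher side 3 of the 10 genes encode transporters. YCT1, a transporter of cysteine, was at 1.27, 0.70 and -0.06 with DMSO and at 2.70, 2.98 and 1.72 with TSA. PUT4, the proline permease, was at 2.32, 3.02 and 1.57 with DMSO and at 4.80, 4.23 and 3.76 with TSA. THI7, a thiamine transporter, was just below 0 with DMSO, at -0.51, -0.49 and -0.32, and above it with TSA, at 0.35, 0.68 and 0.62. Others were genes that heat shock induced further with TSA. TKL2, the minor transketolase of the pentose phosphate pathway, was at 2.02, 4.13 and 2.48 with DMSO and at 3.38, 5.67 and 5.17 with TSA. PIR3, a cell wall protein, was at -0.40, 3.50 and 3.67 with DMSO and at 1.98, 5.37 and 4.79 with TSA. GID10, a substrate receptor of the GID ubiquitin ligase, was at 2.67, 4.26 and 2.27 with DMSO and at 5.03, 5.27 and 4.60 with TSA. HAC1, the transcription factor of the unfolded protein response, was raised at each time as well. It stood at 0.86, 1.06 and 0.12 with DMSO and at 1.92, 2.55 and 2.36 with TSA, and an array does not tell its spliced from its unspliced RNA. Its target KAR2, the Hsp70 of the endoplasmic reticulum, differed by -0.30, -0.08 and 0.07. The remaining 3 were below 0 at each time with DMSO and higher with TSA. HPT1, an enzyme of purine salvage, was at -3.94, -4.44 and -2.38 with DMSO and at -2.38, -1.91 and -1.51 with TSA. NRD1, a factor that ends transcription of noncoding RNAs, was at -0.71, -2.18 and -1.28 with DMSO and at 0.12, -0.75 and -0.05 with TSA. SWC7, a subunit of the SWR1 chromatin remodeller, was at -1.01, -0.99 and -1.56 with DMSO and at 0.14, -0.10 and 0.20 with TSA.

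On the lower side 37 of the 40 genes had a DMSO ratio above 0 at all 3 times, so that nearly all of them were genes that heat shock induced less with TSA. Across all genes the DMSO ratio was above 0 at all 3 times in 1789 of 5129, and because the genes were chosen on a difference that holds the DMSO ratio, this is a description only. INH1, the inhibitor of the mitochondrial ATP synthase, was at 1.11, 2.25 and 1.48 with DMSO and at 0.32, 0.73 and 0.42 with TSA. COA4, an assembly factor of cytochrome c oxidase, was at 0.39, 1.03 and 1.48 with DMSO and at -0.67, 0.24 and 0.09 with TSA. SDH8, an assembly factor of succinate dehydrogenase, was at 1.17, 1.56 and 1.51 with DMSO and at 0.39, 0.69 and 0.78 with TSA. These 3 rose with DMSO at 15 and 30 min and were lower throughout with TSA. MET28, an activator of sulphur amino acid genes, was at 1.93, 1.28 and 0.62 with DMSO and at 0.48, 0.19 and -0.13 with TSA. BXI1, a protein of the Bax inhibitor family, was at 1.28, 1.85 and 1.81 with DMSO and at 0.51, 0.75 and 0.69 with TSA. USB1, the exonuclease that trims U6 RNA, was at 1.35, 1.31 and 0.65 with DMSO and at 0.28, 0.52 and -0.14 with TSA. HAB1 and the uncharacterised YOR289W were both strongly induced and lower with TSA. HAB1 was at 2.81, 5.22 and 4.27 with DMSO and at 1.86, 4.02 and 3.12 with TSA, and YOR289W differed by -0.75, -1.07 and -1.18. COS5, of a subtelomeric family of near-identical membrane proteins, was at 0.74, 0.99 and 0.22 with DMSO and at -0.08, -0.63 and -1.19 with TSA. Of 9 COS genes measured, 5 were over 1.5-fold lower at 15 min and 4 at 30 min, against 9.24% and 4.19% of all genes. Their mean difference of -0.44 at 30 min was smaller than the -0.51 between the wild-type courses, and since their copies share sequence these are not separate measurements. BTN2, described above, completes the 10. Further down the list ATG8, the ubiquitin-like protein of autophagosomes, differed by -1.08, -1.11 and -0.72 and GPD1, the glycerol 3-phosphate dehydrogenase of the osmotic response, by -1.24, -1.03 and -0.71.

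**Figure D4:**
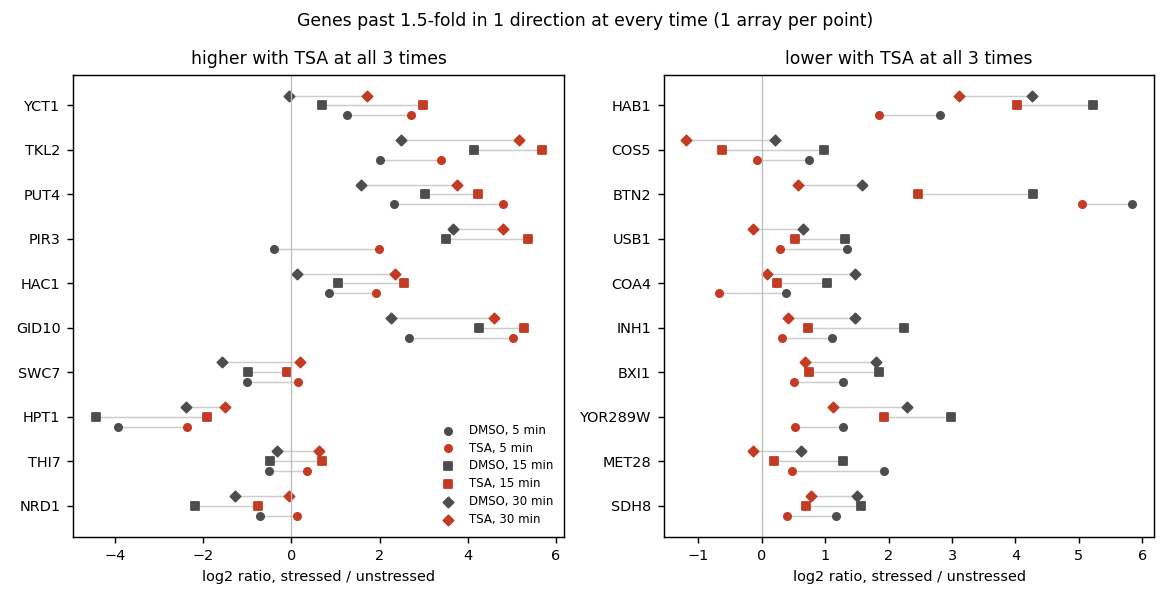
Log2 ratio of stressed over unstressed (x axis) with DMSO (grey) and TSA (red) at 5, 15 and 30 min (circle, square, diamond) for the 10 genes with the largest smallest difference in each direction, 1 array per point. Every pair is joined by a line, and on the left the red point lies to the right of the grey one, on the right to its left.

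Genes known as targets of Rpd3p and Ume6p in growing cells, and a subtelomeric family, were read next. INO1, inositol phosphate synthase, had no value with DMSO at 5 min and stood at 1.71 and 1.34 at 15 and 30 min, against 1.98, 4.73 and 3.43 with TSA, a difference of 3.02 at 15 min and 2.09 at 30 min. On the unstressed rpd3Δ over wild-type arrays it was at 3.24 and 4.84, with no value on the third. That ratio compares strains and is not a response to stress. In heat shock, INO1 differed between rpd3Δ and wild-type cells by 0.30 and 0.95 at 5 min in the first and second course. At 30 min the courses gave 2.90 and 0.11, and 15 min had no value. The list of inositol and phospholipid synthesis genes, of which 10 were measured on all 6 arrays, without INO1, differed by -0.09, -0.11 and -0.01 on average, with 6 of 10 below 0 at each time, and by -0.08, -0.04 and -0.00 with scaled arrays. Of all 5129 genes 2819, 2671 and 2788 were below 0 at 5, 15 and 30 min. Of the early meiotic genes with Ume6p sites, 9 of 17 were measured on all 6 arrays, and they differed by 0.37, 0.31 and 0.40 on average, or by 0.53, 0.50 and 0.53 with scaled arrays. At 15 min the mean rested on a few members, since 5 of 9 were below 0 and the median was -0.06, against medians of 0.40 and 0.47 at 5 and 30 min. DMC1, the meiotic recombinase, and SPO13, a regulator of meiotic chromosome segregation, differed by -0.23 and -0.16 at 15 min. IME2, a kinase that drives meiosis, was at 0.81, 1.30 and 0.08 with DMSO and at 1.52, 2.07 and 0.99 with TSA, and SPO16, a meiotic recombination factor, was at -0.35, -0.53 and -0.96 with DMSO and at 0.18, 0.44 and 0.08 with TSA. These genes varied more than that between cultures, by -0.40 and -1.02 between the wild-type courses at 5 and 30 min. Seripauperins, cell wall mannoproteins of a family of near-identical subtelomeric genes, were slightly higher with TSA at each time, by 0.16, 0.28 and 0.44 over 23 genes, or 0.25, 0.32 and 0.52 with scaled arrays, and TIR3 was at -0.70, -2.58 and -1.86 with DMSO and at 0.10, -0.73 and -0.67 with TSA.

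The comparison with cells that lack Rpd3p asks whether the drug and the deletion shift the same genes. No array was shared between them, the rpd3Δ and wild-type cells were of the first course at 15 min and of both courses at 5 and 30 min, and the unstressed rpd3Δ cells of the second course are labelled at 30°C. Across genes the difference between TSA and DMSO correlated with that between rpd3Δ and wild-type cells with r = 0.30 and 0.31 in the first and second course at 5 min (4895 and 4237 genes), with r = 0.38 at 15 min (4775 genes) and with r = 0.12 and 0.03 at 30 min (4792 and 3686 genes). With the difference between the catalytic allele and RPD3 on a plasmid, taken at 20 min, r was 0.24, 0.39 and 0.01 with the 5, 15 and 30 min differences (4875 genes). Genes are not replicates. The rpd3Δ arrays, like the TSA arrays, had a smaller spread than their partners at 5 and 15 min. The SD was 0.70 against 1.09 in the first course at 15 min, and the part of this in the correlations was not tested. The sizes were unequal. The PS mean was 0.79, 0.74 and 0.31 higher in rpd3Δ than in wild-type cells at 5, 15 and 30 min, against 0.23, 0.58 and 0.05 for TSA against DMSO. The iESR mean differed by -0.77, -1.13 and -0.96 in rpd3Δ cells, where with scaled arrays it turned to 0.41 at 15 min, against -0.19, -0.58 and 0.09 for TSA. The iESR and PS mean differences in rpd3Δ cells were still present at 30 min, whereas the mean differences with TSA were small. Whether the drug and the deletion differ in this was not tested. The RP mean was -0.15, 1.03 and 0.46 in rpd3Δ minus wild-type cells and -0.30, 0.22 and -0.12 in TSA minus DMSO. That of the proteasome was -0.32, -0.42 and -0.36 against -0.22, -0.62 and -0.37. Between the catalytic allele and RPD3 on a plasmid at 20 min, the proteasome list was not lower, with a mean difference of 0.10. The study's own proteasome cluster differed by 0.05 there. The PS, RP and iESR means differed by 0.54, 0.06 and -0.99 between these plasmid arrays. XKS1, xylulokinase, assayed singly by the study, differed with TSA by -0.67, -0.93 and -0.54, and in rpd3Δ cells by -1.58 and -1.25 at 5 min and -1.56 at 15 min. UBC5, a ubiquitin-conjugating enzyme also assayed singly, differed with TSA by -0.04, -0.80 and -0.04, and in rpd3Δ cells by -1.49 and -0.78 at 5 min and -1.34 at 15 min. YGP1, a secreted glycoprotein, was 0.39, 0.00 and 0.65 higher with TSA and differed by -0.24 to -3.32 in rpd3Δ cells at the same times.

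**Figure D5:**
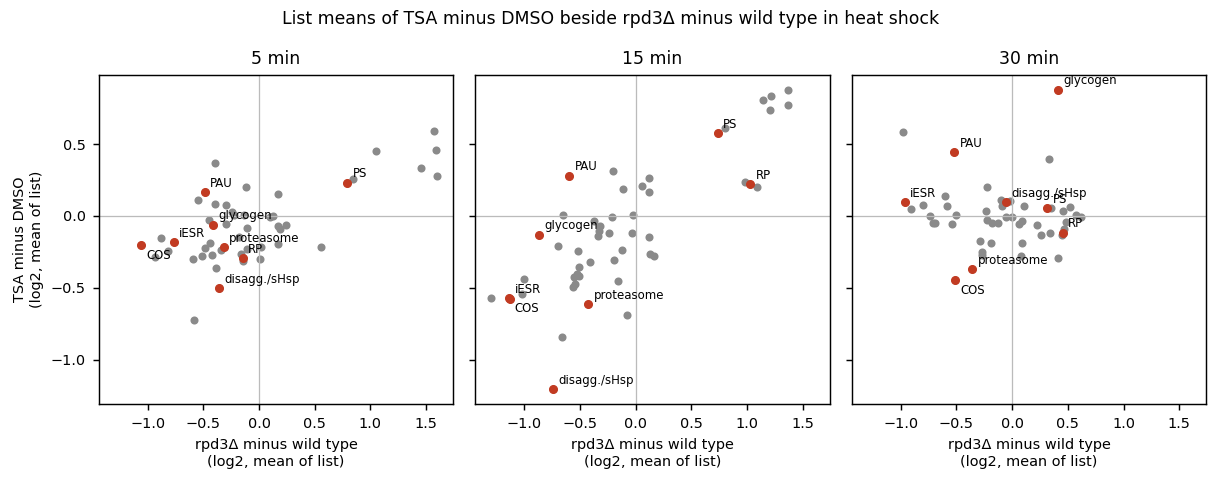
Mean difference between TSA and DMSO (y axis) against mean difference between rpd3Δ and wild-type cells (x axis), both log2, at 5, 15 and 30 min, with 1 point per gene list and some lists named. PS lists lie in the upper right at 15 min and, except the weakly dependent one (-0.00 on the y axis), also at 5 min. At 30 min glycogen genes and seripauperins (PAU) are higher with TSA.

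A separate set of genes came from the 3 arrays of unstressed rpd3Δ over wild-type cells, the only place where replicates allowed a test. limma called 112 genes higher (2.53%) and 43 lower (0.972%) of 4426 measured on all 3 arrays at an adjusted p under 0.05. RPD3 itself, the deleted gene, was at -2.57 on replicate 3 and had no value on the others. Without replicate 3, which has the opposite dyes, limma called 802 and 740 genes, and without replicate 1 or 2 it called 88 or 84 lower genes. Of the higher genes 97 were measured on the TSA and DMSO arrays. Their mean was 1.02, 1.79 and 1.19 with DMSO and 1.02, 1.53 and 1.31 with TSA. At 15 min 33.0% of them were over 1.5-fold lower with TSA, against 9.24% of all genes, and 12.4% were higher, against 9.28%. Of the 528 genes induced on the untreated wild-type array at 15 min, with a DMSO mean of 1.89, 33.3% were over 1.5-fold lower. The share of lower genes was thus that of induced genes in general, but that of higher genes was not. Over 1.5-fold higher at 15 min were 12 of the 97 and 15 of the 528, a contrast that was not tested. At 5 and 30 min their means differed by 0.00 and 0.11. The 39 measured genes that were lower in unstressed rpd3Δ cells differed by -0.05, -0.16 and -0.18. Across genes the unstressed ratios and the differences between TSA and DMSO were nearly unrelated, with r between -0.08 and 0.07 over the 3 arrays and 3 times. FIT2, a cell wall mannoprotein of iron uptake, was 2.53 higher in unstressed rpd3Δ cells (limma, adjusted p = 0.00752) and was at 0.82, 3.44 and 2.63 with DMSO and at 0.57, 1.94 and 2.17 with TSA. INH1, in the lower group above, was 0.79 higher in unstressed rpd3Δ cells (limma, adjusted p = 0.0468), and so was YJL163C by 2.33 (limma, adjusted p = 0.00752), which differed by -0.96, -0.87 and -0.72 with TSA. PIR3, higher with TSA, was also higher in unstressed rpd3Δ cells, by 0.89 (limma, adjusted p = 0.039).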

How the data were processed

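The authors deposited 1 log2 value per gene and array, the ratio between both channels, and these values were used unchanged. Their normalization, background correction, direction and the reason for empty values are not given in the sources used here. The dye of the stressed channel on the TSA and DMSO arrays was the reverse of that on the untreated courses. Of 6297 genes, 5832 had an entry in the RefSeq name table. Every column belonged to a sample (0 of no sample).

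Differences of matched arrays were taken for genes measured on all 6, with no test. Unstressed arrays were fitted with limma 3.58.1 in R 4.3.3 and Benjamini-Hochberg adjustment, and replicate 3 has its dyes reversed. Python 3.11.15 with pandas 2.3.3 and numpy 2.4.6 did the rest, and matplotlib 3.10.9 drew the figures. The rule for consistent genes and the limma step were checked on simulated data. Named genes are the 10 with the largest smallest difference in each direction, genes assayed singly by the study, deacetylase genes, and of each list the members with the highest, median or lowest mean difference or the largest DMSO ratio. The genes HSP104, HSP42, CUR1, SIS1, PRE3, RPN7, SPI1, GSY2, SIP18, ATG8, YJL163C, IME2, DMC1, SPO13, HSP12, TEF4, RCH1 and FRE7 were chosen after their values were seen, as were the sets induced or repressed on the wild-type arrays and the disaggregase list without HSP26. The members and lists were chosen with earlier results of these data known. Alternatives were centring, scaling, a 2-fold threshold, 2 or more times, and leaving out a time or a replicate. Promoter sequences were not used here. The labels do not say whether the 3 unstressed replicates were separate cultures, so the limma p-values may cover technical spread only. The number of arrays limits the precision.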

Additional observations from a re-analysis of the deposited data

Results flagged for a closer look

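Some differences between TSA and DMSO had opposite signs at different times, and this contrast between times was not tested, since each time has 1 array per treatment. The RP genes had a mean difference of -0.30 at 5 min and 0.22 at 15 min. The hydrophilin and small stress protein list had one of -0.41 at 15 min and 0.58 at 30 min. Of 5129 genes, 44 were over 1.5-fold higher with TSA at one time and over 1.5-fold lower at another, HSP26 and SPI1 among them. No group held enough arrays to look for a single array far from the others.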

How the results depend on the processing

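No paired analysis was possible because the arrays matched by time give 1 difference per time, with no independent replicates and no replicate numbers in the labels. Centring the arrays on their medians left all counts and list means close to their values, and 23 of 23 higher and 33 of 40 lower genes were kept at all 3 times. At 2-fold, 57, 144 and 62 genes were higher and 25, 82 and 32 lower at 5, 15 and 30 min, with 6 higher and 0 lower at all 3 times. Past 1.5-fold at 2 or more times with none in the other direction were 169 higher and 173 lower genes. Without the 5 min arrays 60 and 105 were consistent, without the 15 min arrays 48 higher, and without the 30 min arrays 109 and 99.

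Scaling every array to one median absolute deviation moved most list means. At 15 min 277 genes were then higher and 259 lower, and 44 were higher at all times, of which 18 were among the 23. Mean differences became, at 5 and 15 min, 0.0305 and 0.0570 for PS genes, 0.147 and 0.0926 for the heavily dependent PS genes, 0.49 and 0.64 for the iESR cluster, -0.21 and -0.33 for the hyper-induced cluster and 0.28 and -0.23 for the disaggregase list. At 5, 15 and 30 min they became -0.56, -0.53 and -0.40 for RP genes and 0.58, 0.81 and 1.28 for glycogen genes. The mean over the times of TKL2, PUT4 and GID10 rose to 2.73, 2.76 and 2.86, and those of HAB1 and BTN2 shrank to -0.39 and -0.48. In rpd3Δ minus wild-type cells the PS mean at 15 min became 0.39 and the iESR mean -0.0783 at 5 min and 0.41, reversed, at 15 min. The mean over the times of the heavily dependent PS genes, 0.44, was 0.23 without the 15 min arrays and 0.67 without the 30 min arrays, and the PS mean of the second course alone was 0.61 at 5 min in rpd3Δ minus wild-type cells.

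With genes measured on at least 2 unstressed arrays limma called 67 higher and 26 lower. Leaving out 1 unstressed replicate gave 105 to 802 higher and 84 to 740 lower genes, and without replicate 3, which has the opposite dyes, the 802 and 740 hold any dye effect.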

Other observations

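A few values at a single time stood far from their neighbours in time. TEF4, an elongation factor subunit, was at -0.50, -2.35 and -2.31 with DMSO and at -0.62, 2.62 and -1.97 with TSA, so that 1 array carries its difference of 4.97 at 15 min. RCH1 was at 1.01, 0.25 and -3.09 with DMSO and at 0.39, 0.65 and 0.62 with TSA. FRE7, a ferric or cupric reductase, was at -1.72, -1.52 and -0.06 with DMSO and at -1.30, 1.30 and 0.60 with TSA. HSP12, a membrane-stabilising stress protein, had no value on 3 of the 6 arrays, and stood at 7.19 and 8.89 with DMSO and at 6.78 with TSA at 5 min.

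Among lists not described above, 10, 9 and 9 of 10 histone genes were below 0 at 5, 15 and 30 min, with mean differences of -0.30, -0.24 and -0.19, and 1 value passed 1.5-fold. Across all genes 2819, 2671 and 2788 of 5129 were below 0. Between the wild-type courses the histone mean differed by 0.06, -0.04 and -0.50 at 5, 30 and 60 min. The list of hexose transport genes differed by -0.23, -0.69 and -0.05, or by 0.13, -0.22 and 0.01 with scaled arrays, with HXT6 at 2.54, 3.44 and 0.65 with DMSO and at 2.64, 1.87 and 0.08 with TSA. HXT6 and HXT7 are near-identical and cannot be told apart on an array. Targets of the drug efflux factors Pdr1p and Pdr3p differed by -0.03, -0.12 and -0.05 on average, or by 0.08, 0.06 and -0.03 with scaled arrays, and Yap1p targets by 0.07, -0.04 and 0.14, or by 0.11, 0.06 and 0.18.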
